A study of Homo sapiens with 4 samples.

Results

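The comparison of MDA-MB-231 cells given kahweol with untreated cells, both transfected with control siRNA (siControl), rested on 2 of the 4 RNA-Seq libraries of the series. MDA-MB-231 is a triple-negative breast cancer cell line with a mesenchymal shape and a mutant p53. The untreated library came from siControl cells without kahweol, and the treated library from siControl cells given 50 µM kahweol for 48 h in serum-free medium. The other 2 libraries came from cells transfected with siRNA against CTGF (siCTGF), untreated or given the same kahweol treatment. All 4 groups therefore share transfection and serum withdrawal, and each group is 1 library, so no condition has a replicate. Kahweol was dissolved in DMSO according to the study's methods, which name no vehicle for untreated cells, so kahweol and DMSO cannot be told apart. Of the 35993 genes in the table, the 16599 whose counts averaged 10 or more across all 4 libraries were kept, and 13922 of them are protein-coding. Their change was the difference in log2 CPM (the share of a library's counts, scaled with the TMM factors of edgeR) between the treated and the untreated siControl library.

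Kahweol is a diterpene of coffee oil. Coffee diterpenes are known as inducers of NRF2, a transcription factor that KEAP1 holds in check until reactive electrophiles modify KEAP1, after which NRF2 turns on genes for glutathione, NADPH, heme breakdown and iron storage. Cells under chemical stress can also slow protein synthesis through phosphorylation of eIF2, which favors translation of ATF4, and can raise chaperones through HSF1 in the cytosol and through ATF6, IRE1 and PERK in the endoplasmic reticulum (ER). SREBP factors on the ER membrane set the transcription of sterol and fatty acid synthesis. RNA-Seq reads the transcripts of these pathways and not the activity of the proteins.

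The total count was 59129784 in untreated and 44781516 in kahweol-treated siControl cells, and 51830429 and 47276653 in siCTGF cells. Fold changes between 2 libraries are given with a 95% Clopper-Pearson counting interval, which takes 2 reads as 1 fragment and covers counting error only. To test the average effect of kahweol over both siRNAs, the 2 treated libraries were compared with the 2 untreated ones in edgeR's quasi-likelihood test with the siRNA as a covariate and Benjamini-Hochberg adjustment. The fit leaves 1 residual degree of freedom, the difference between the kahweol effects under the 2 siRNAs, which it takes as noise. The siControl pair is part of that fit. For genes picked by their siControl change, the test therefore partly reuses the values that picked them and is no independent support. In what follows, "rose" and "fell" are kept for genes that passed it at an adjusted p of 0.05, and "higher" and "lower" describe the siControl pair alone. The siCTGF pair shares no library with the siControl pair and took no part in ranking the genes by size, so its value is printed beside. The knocked-down gene CTGF (CCN2), a matricellular protein, was at 159 CPM in untreated and 186 CPM in treated siControl cells, and at 63.6 and 31.8 CPM in siCTGF cells. Of 13 breast lineage markers, KRT18 (keratin 18) was at 324 to 408 CPM and VIM (vimentin), the highest, at 2548 to 3254 CPM. The estrogen receptor gene ESR1 was at no more than 0.0960 CPM, and the keratins KRT5 and KRT14 were at 0 in all 4 libraries. Markers of leukocytes, fibroblasts and endothelium summed to 43.5 to 63.5, 13.1 to 17 and 27.1 to 40.9 CPM. Their highest members were CD68, PDGFRB and TIE1, and MS4A1, POSTN and CLDN5 were at 0 in all 4 libraries.

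At the fold thresholds used here, more genes lay past a threshold than between the thresholds, about as many upward as downward. In the siControl pair, 4665 genes had a fold change over 1.3 (28.1% of those kept) and 4365 a fold change under 0.7 (26.3%), which left 7569 genes (45.6%) between. A fold change of at least 2 was seen for 1359 genes upward (8.19%) and 2202 genes downward (13.3%). The median over all genes kept was -0.02 on the log2 scale. CPM are shares of a library, so a change in the RNA content of the cells does not show in them, and fewer cells of a kind and less RNA per cell cannot be told apart. With total-count scaling, which lowers the log2 fold changes by 0.13 relative to TMM, the split was 3646 over 1.3 against 5239 under 0.7. Over all 4 libraries, 3805 genes (22.9%) passed the test as higher and 3922 (23.6%) as lower, and 2879 and 5159 with total-count scaling.

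Genes that moved in siControl cells mostly moved the same way in siCTGF cells. Over all 16599 genes kept, whatever their size of change, 13762 had the same sign in both pairs. Of the 1359 genes at least 2-fold higher, 1233 (90.7%) were also higher in the siCTGF pair, and 824 were at least 2-fold higher there, which is 60.6% of the siControl list and 53.1% of the siCTGF list of 1551 genes. Among the 2202 genes at least 2-fold lower, 1966 (89.3%) had the same direction in siCTGF cells, and 1207 were at least 2-fold lower, 54.8% of the siControl list and 67.4% of the 1792 genes in the siCTGF list. Between the 2 pairs, Pearson's r of the log2 fold changes was 0.652 and Spearman's rho 0.760 across all 16599 genes, and genes are no replicates of each other. Among the 11486 genes whose counts averaged 200 or more, r was 0.873 and rho 0.901.

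**Figure D1:**
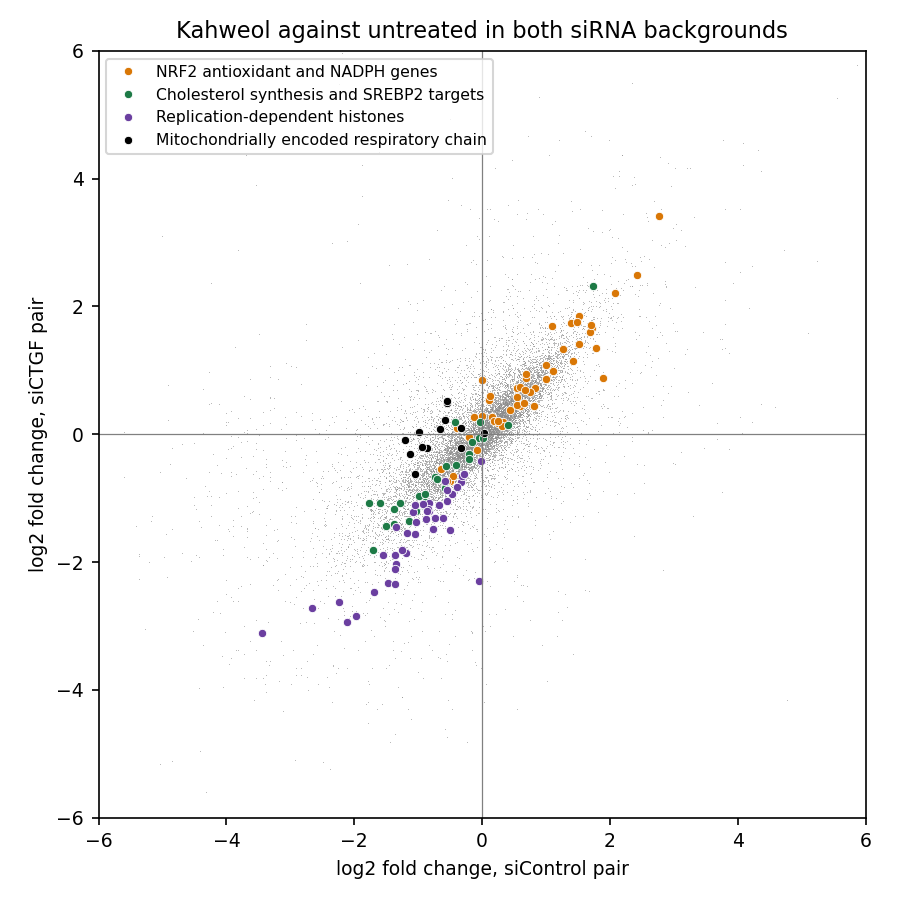
Log2 fold change with kahweol in the siControl pair (x axis) and the siCTGF pair (y axis), 1 library per condition. Each gray point is 1 of the 16599 genes kept (17 lie outside the axes), and colored points are members of 4 gene lists. NRF2 genes lie mostly at the upper right, cholesterol genes and histones at the lower left, and mitochondrially encoded genes to the left with siCTGF values on both sides of 0.

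The gene with the greatest increase among protein-coding genes that averaged 200 counts or more was HMOX1, heme oxygenase-1, which breaks heme down to biliverdin, iron and carbon monoxide. HMOX1 lies on chromosome 22 between 35777089 and 35790200 (GRCh37, gene ID 3162). It was at 34.3 CPM in untreated and 581 CPM in treated siControl cells, and at 44.3 and 1029 CPM in siCTGF cells. Both treated libraries stood far above both untreated ones. The increase in siControl cells was 16.9-fold, a log2 fold change of 4.08 (3.99 to 4.17), and edgeR gave an adjusted p of 5.2e-06. SLC3A2, the heavy chain that carries cystine and large neutral amino acid transporters to the membrane, went from 132 to 1003 CPM in siControl and from 145 to 1144 CPM in siCTGF cells. Its log2 fold change was 2.92 (2.88 to 2.97) in siControl cells, and 2.98 in the siCTGF pair. FTH1, the ferritin heavy chain that stores iron in an oxidized form, went from 143 to 813 CPM in siControl and from 194 to 971 CPM in siCTGF cells, a siControl log2 fold change of 2.51 (2.46 to 2.55).

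Transcription factors and chaperones of lower abundance were among the remaining genes at the top. The AP-1 subunit FOS (chromosome 14, 75745531 to 75748933) went from 4.99 to 40.0 CPM in siControl and from 5.56 to 52.0 CPM in siCTGF cells, log2 fold changes of 2.99 (2.75 to 3.26) and 3.22. FOSB, another AP-1 subunit, had 2.35 and 2.62 in the 2 pairs. SNAI1, the zinc finger repressor known as Snail that acts in epithelial-mesenchymal transition (EMT), was at 2.82 and 1.68 CPM in the untreated and at 19.8 and 19.6 CPM in the treated libraries, a log2 fold change of 2.80 (2.48 to 3.16) in siControl cells. DNAJB9, an ER co-chaperone of BiP, went from 9.25 to 49.8 CPM and OSGIN1, an NRF2 target that restrains growth, from 22.7 to 122 CPM. Both had a log2 fold change of 2.42 in siControl cells, and 2.46 and 2.49 in siCTGF cells. The other genes among the 15 highest that rose in the same way were HSPA6, a stress-inducible HSP70, the small GTPase RASD1, the zinc finger genes OSR2 and ZNF844, and TEX14, with log2 fold changes of 2.26 to 2.86.

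A pair of genes among the 15 highest could not be read as transcript changes of their own. HTD2, a mitochondrial fatty acid synthesis enzyme, and PIGY, a subunit of the first enzyme of GPI anchor synthesis, lie on the same strand as RPP14 and PYURF, with which they share transcripts. HTD2 was at 2.43, 22.2, 5.78 and 13.7 CPM and PIGY at 3.42, 24.5, 4.67 and 1.04 CPM in untreated and treated siControl and untreated and treated siCTGF cells. For PIGY the siCTGF pair went the opposite way, with a log2 fold change of -2.13 against 2.82.

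At the other end, the 15 genes that fell most had varied roles. KRT23, a type I keratin (chromosome 17, 39078952 to 39093898), was at 17.3 and 14 CPM in the untreated and at 0.833 and 0.248 CPM in the treated libraries, a log2 fold change of -4.31 (-5.14 to -3.71) in siControl cells. FGF1, the acidic fibroblast growth factor, went from 22.9 to 2.62 CPM in siControl and from 27.2 to 2.43 CPM in siCTGF cells, log2 fold changes of -3.11 (-3.56 to -2.75) and -3.46. The neutrophil chemokine CXCL1 went from 41.2 to 5.76 CPM and from 39.9 to 2.86 CPM, a 7.11-fold fall in siControl cells. In the siCTGF pair, which did not rank the genes, KRT23 and CXCL1 had log2 fold changes of -5.62 and -3.78. TNFSF15, a TNF family cytokine, WNT16, a WNT ligand, and ADGRF1, an adhesion G protein-coupled receptor, had log2 fold changes of -3.56, -3.34 and -2.96, and -4.18, -3.62 and -3.39 in siCTGF cells. The others of the 15 lowest were the ciliary kinase NEK8, the lysosomal arylsulfatase ARSA, the choline dehydrogenase CHDH, the protease C1RL, the copine CPNE7, the glycosyltransferase LARGE2, ATG16L2, VXN and FSBP, with log2 fold changes from -2.74 to -4.09 for all but FSBP. FSBP lies within the span of RAD54B on the same strand, and had 1 count in the treated siControl library and 481 counts in the untreated one, so its counting interval has no lower end.

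**Figure D2:**
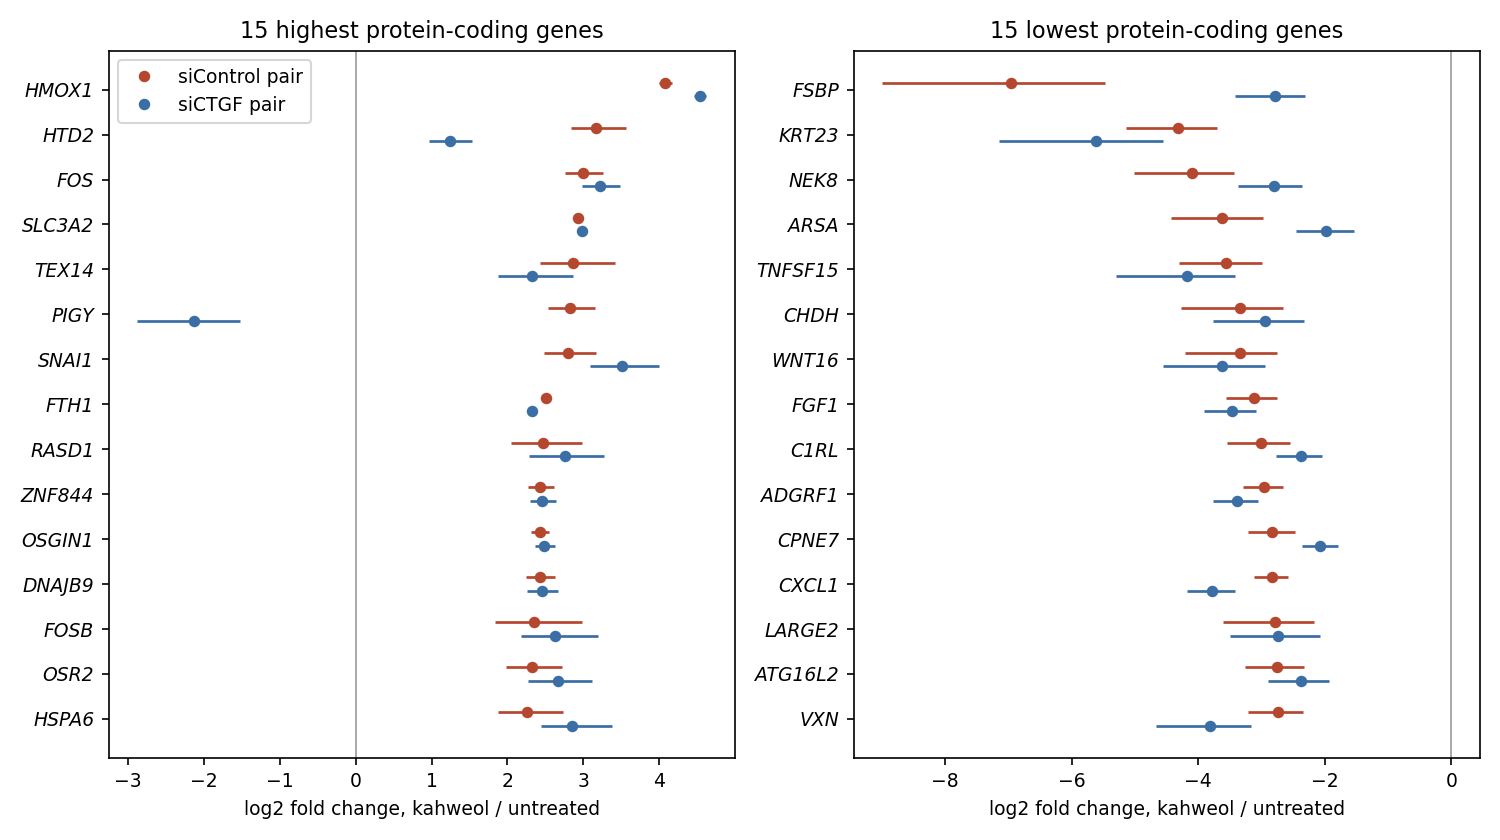
Log2 fold change with kahweol (x axis) of the 15 highest and 15 lowest protein-coding genes in the siControl pair (y axis, counts averaging 200 or more), with the value in the siCTGF pair. Points are single-library comparisons and lines are 95% counting intervals, and the line of FSBP is open to the left. HMOX1 stands above the other genes in both pairs, and PIGY alone lies on opposite sides of 0.

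Genes of the NRF2 response were mostly higher with kahweol. Of the 51 genes kept for antioxidant and NADPH enzymes, 32 were over 1.3 and 2 under 0.7, with a median log2 fold change of 0.65 against -0.02 for all genes kept, and of 0.70 in siCTGF cells. Over all 4 libraries, 34 rose and 4 fell, where 22.9% of all genes kept rose and 23.6% fell. NQO1, the quinone reductase often used as a readout of NRF2, was at 493 and 523 CPM in the untreated and at 1059.6 and 1033 CPM in the treated libraries. Its log2 fold change was 1.10 (1.07 to 1.13; edgeR adjusted p = 5.3e-05). SQSTM1 (p62), an autophagy adaptor that binds KEAP1, went from 762 to 3203 CPM in siControl and from 789 to 3662 CPM in siCTGF cells (2.07 and 2.22 on the log2 scale). The aldo-keto reductases AKR1B10 and AKR1C2, which reduce reactive carbonyls, rose from 0.864 to 6.14 CPM and from 1.07 to 4.07 CPM, that is by 2.77 (2.22 to 3.48) and 1.89 (1.32 to 2.52) on the log2 scale. AKR1C2 has near-identical neighbors, so reads may be divided among them. ABCC3, an efflux pump for conjugated anions, and GPX8, an ER peroxidase, fell by 0.64 and 0.55 on the log2 scale.

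The promoters of these genes are shown because many of the genes moved together. Promoter sequences of RefSeq (GRCh38.p14) run from 250 bases before to 50 bases after a gene's start, and 39 of the 51 NRF2 genes had an entry. The antioxidant response motif, searched as TGACNNNGC on both strands, was found in 10 of the 39 (25.6%) and in 13.3% of all 35116 promoters. Of the 10 genes with a match, 5 were over 1.3 and none under 0.7, next to 32 and 2 of the 51 in the whole list. The 35116 promoters were not limited to the genes kept, so here and for the motifs below a list and its background are unlike sets. A match of letters does not show that NRF2 binds there. The stretches below, each on the strand of the gene and within the 250 bases before its start, hold the motif in capitals. GCLM encodes the modifier subunit of glutathione synthesis, TXNRD1 thioredoxin reductase, PGD and ME1 enzymes that make NADPH, and MAFF a small MAF partner of NRF2. These 5 genes were picked with their values known, as were the other genes shown for a match. In ME1 the same letters also hold the AP-1 motif TGANTCA.
GCLM, chr1:93909446-93909474, strand -: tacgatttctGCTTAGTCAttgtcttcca
TXNRD1, chr12:104215670-104215698, strand +: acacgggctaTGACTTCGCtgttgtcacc
PGD, chr1:10398853-10398881, strand +: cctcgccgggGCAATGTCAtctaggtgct
ME1, chr6:83431170-83431198, strand -: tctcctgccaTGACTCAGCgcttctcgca
MAFF, chr22:38201862-38201890, strand +: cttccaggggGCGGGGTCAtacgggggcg
The genes with these stretches had log2 fold changes of 1.71 (GCLM), 1.00 (TXNRD1), 0.82 (PGD), 0.59 (ME1) and 0.69 (MAFF) in siControl cells. In the siCTGF pair the values were 1.67, 0.86, 0.72, 0.44 and 0.95, so all 5 were higher in both pairs.

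Heme and iron genes moved both ways around a median of -0.10. Of 31 kept, 12 were over 1.3 and 6 under 0.7. The ferritin light chain FTL, the partner of FTH1 in the iron storage shell, went from 966 to 3567 CPM in siControl and from 1237 to 4728 CPM in siCTGF cells, and its siControl log2 fold change was 1.88 (1.87 to 1.90). The iron exporter SLC40A1 (ferroportin) rose from 3.01 to 7.22 CPM. The iron reductases STEAP2 and STEAP3 and PPOX, an enzyme of heme synthesis, fell, with log2 fold changes of -1.30, -0.92 and -0.75. Among the 8 genes kept for metallothioneins and zinc response, 5 were over 1.3 and 3 under 0.7. SLC30A1, the zinc exporter of the plasma membrane, rose from 19.7 to 70.0 CPM, a log2 fold change of 1.83 (1.70 to 1.97). The metallothioneins MT1E, MT1X and MT2A, small cysteine-rich proteins that bind zinc, also rose, with log2 fold changes of 1.19, 0.84 and 0.51, whereas MT1A, at 1.10 and 0.486 CPM, did not pass the test (log2 fold change -1.12). Metallothionein genes are near-identical copies, so the split of reads among them is uncertain. MTF1, the factor that reads zinc, rose by 1.40 and the zinc importer SLC39A10 fell by 1.33 on the log2 scale.

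The metal response motif (TGCACNC or TGCGCNC, both strands) was in the promoters of MT1X, MT2A and SLC30A1, 3 of the 5 genes of this list with an entry, and in 29.6% of all promoters. The stretch of MT1X shows 1 of the 4 matches in its promoter.
MT1X, chr16:56682406-56682434, strand +: ggcggggcctcTGCGCCCggccctcttcc
SLC30A1, chr1:211579193-211579221, strand -: acgggggttccGAGTGCAaagcaaagttt
In siCTGF cells MT1X and SLC30A1 had log2 fold changes of 1.15 and 2.05, both higher, as in siControl cells.

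Genes of drug handling showed no common direction. Targets of the aryl hydrocarbon receptor (AHR) and drug-metabolizing P450s (18 kept) had 5 over 1.3 and 6 under 0.7, and ABC efflux transporters (10 kept) had 2 and 3. CYP1A1 and CYP1B1, the P450s that AHR induces, rose from 3.55 to 8.29 CPM and from 3.92 to 7.55 CPM. AHRR, the AHR repressor, fell, with a log2 fold change of -0.71, but it overlaps PDCD6 on the same strand and may share its reads. CYP24A1, which inactivates vitamin D, fell from 7.39 to 0.417 CPM in siControl and from 5.15 to 0.563 CPM in siCTGF cells, log2 fold changes of -4.03 (-5.30 to -3.20) and -3.11.

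Genes of the integrated stress response were higher more often than lower. Of 40 targets of ATF4 and CHOP kept, 19 were over 1.3 and 3 under 0.7, with a median of 0.29 (0.35 in siCTGF cells). ATF4 itself went from 496 to 939 CPM, a log2 fold change of 0.92 (0.89 to 0.95). DDIT3, which encodes the stress factor CHOP, went from 18.4 to 74.1 CPM in siControl and from 25.9 to 90.6 CPM in siCTGF cells. That is a log2 fold change of 2.00 (1.87 to 2.15) and 1.80. PPP1R15A (GADD34), which returns eIF2 to its unphosphorylated form, rose 4.74-fold from 83.8 to 397 CPM, and SLC7A11, the cystine transporter that pairs with SLC3A2, 3.43-fold from 144 to 493 CPM. DDIT4, an inhibitor of mTORC1, and PYCR1, of proline synthesis, fell, with log2 fold changes of -1.06 and -0.60. The cytosolic aminoacyl-tRNA synthetases, many of which ATF4 also induces, mostly stayed between the thresholds (13 of 20). AARS1 and WARS1, which charge alanine and tryptophan tRNAs, rose (0.83 and 0.66), and VARS1, FARSA and FARSB, which charge valine and phenylalanine tRNAs, fell (-0.71, -0.57 and -0.58).

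ER and cytosolic chaperones were higher more often than lower. Among 52 genes of ER folding, ER-associated degradation (ERAD) and the unfolded protein response, 25 were over 1.3 and 1 under 0.7 (median 0.36). Of the 52, 34 rose and 2 fell, against 22.9% and 23.6% of all genes kept. HSPA5 (BiP), the main HSP70 of the ER (gene ID 3309, at 127997132 to 128003622 of chromosome 9, GRCh37), was at 102 and 143 CPM in the untreated and at 359 and 304 CPM in the treated libraries, log2 fold changes of 1.81 (1.75 to 1.87) and 1.09. ERN1, which encodes the ER stress sensor IRE1, rose from 9.97 to 30.4 CPM, and SELENOK, a selenoprotein of the ER membrane, from 22.2 to 61.2 CPM. KDELR3, a receptor that returns ER proteins from the Golgi, was the only list member under 0.7, with a log2 fold change of -0.74. Of 44 heat shock proteins and co-chaperones, 25 were over 1.3 and 2 under 0.7 (median 0.44, and 0.48 in siCTGF cells). HSPA1A, an inducible cytosolic HSP70, went from 94.8 to 294 CPM and its near-identical copy HSPA1B from 157 to 495 CPM in siControl cells. In siCTGF cells HSPA1A went from 88.8 to 443 CPM. The HSP40 co-chaperone DNAJB4 and the small heat shock protein HSPB8 rose 4.71-fold and 4.1-fold. STUB1 (CHIP), a ubiquitin ligase that acts with HSP70, and BAG5, a nucleotide exchange factor, fell, with log2 fold changes of -1.53 and -0.54.

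Promoter stretches of the chaperones are shown for the same reason as for the NRF2 genes. The ER stress element, CCAAT and CCACG with 9 bases of any kind between them on either strand, was found in 7 of 46 list members with an entry (15.2%) and in 0.0769% of all promoters. The members with a match were CALR, CANX, HSPA5, HSP90B1, XBP1, ERO1B and CRELD2, of which 5 were over 1.3 and none under 0.7. HSP90B1 (GRP94) and CANX (calnexin) are ER chaperones, and XBP1 encodes the factor made by IRE1 splicing.
HSPA5, chr9:125241386-125241414, strand -: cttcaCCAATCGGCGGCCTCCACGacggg
CANX, chr5:179698773-179698801, strand +: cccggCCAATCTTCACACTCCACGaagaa
XBP1, chr22:28800598-28800626, strand -: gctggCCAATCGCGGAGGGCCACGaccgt
HSP90B1, chr12:103930316-103930344, strand +: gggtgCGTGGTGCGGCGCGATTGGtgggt
The heat shock motif GAANNTTC, which reads the same on both strands, was found in 11 of 39 list members with an entry (28.2%) and in 6.77% of all promoters, and 9 of the 11 genes were over 1.3. DNAJA1 is an HSP40 co-chaperone and CHORDC1 a co-chaperone of HSP90.
HSPA1A, chr6:31815426-31815455, strand +: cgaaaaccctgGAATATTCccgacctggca
HSPA6, chr1:161524460-161524489, strand +: gaaaggttcgcGAAAGTTCgcggcggcggg
HSPB8, chr12:119178832-119178861, strand +: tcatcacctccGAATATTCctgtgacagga
DNAJA1, chr9:33025064-33025093, strand +: aaagggctccaGAAGATTCcacgagcgccg
CHORDC1, chr11:90223081-90223110, strand -: gGAAAATTCgcGAAGGTTCctgaaacgcaa
The log2 fold changes of CANX, XBP1 and HSP90B1 were 0.82, 0.75 and 0.83, and those of DNAJA1 and CHORDC1 1.3 and 1.37. The chaperones CALR (calreticulin) and HSPB1 (HSP27) also have a match and lay between the thresholds, at 0.16 and 0.14.

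Protein breakdown genes also leaned upward. None of the 40 proteasome subunits was under 0.7 and 21 were over 1.3, with a median of 0.40 (0.32 in siCTGF cells). Of the 40, 26 rose, against 22.9% of all genes kept. The ATPase PSMC6 of the 19S cap, the activator PSME4 and the ubiquitin receptor ADRM1 rose, with log2 fold changes of 1.15, 1.13 and 0.96. PSMC6 was at 90.5 and 107 CPM in the untreated and at 202 and 219 CPM in the treated libraries. Of 69 autophagy and lysosome genes, 32 were over 1.3 and 3 under 0.7 (median 0.37). The ATG8 family members GABARAPL1 and MAP1LC3B, which coat autophagosomes, went from 36.9 to 129 CPM and from 29.3 to 97.7 CPM, log2 fold changes of 1.80 and 1.74. The lysosomal alpha-galactosidase GLA rose 3.03-fold. ATG10, WIPI1 and ULK2, which act in autophagosome formation, were the 3 list members under 0.7 (-1.48, -0.53 and -0.76), and all fell, ULK2 not with DESeq2. The list does not hold ATG16L2, a relative of the autophagy gene ATG16L1, and the lysosomal ARSA, which fell further (-2.76 and -3.63).

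**Figure D3:**
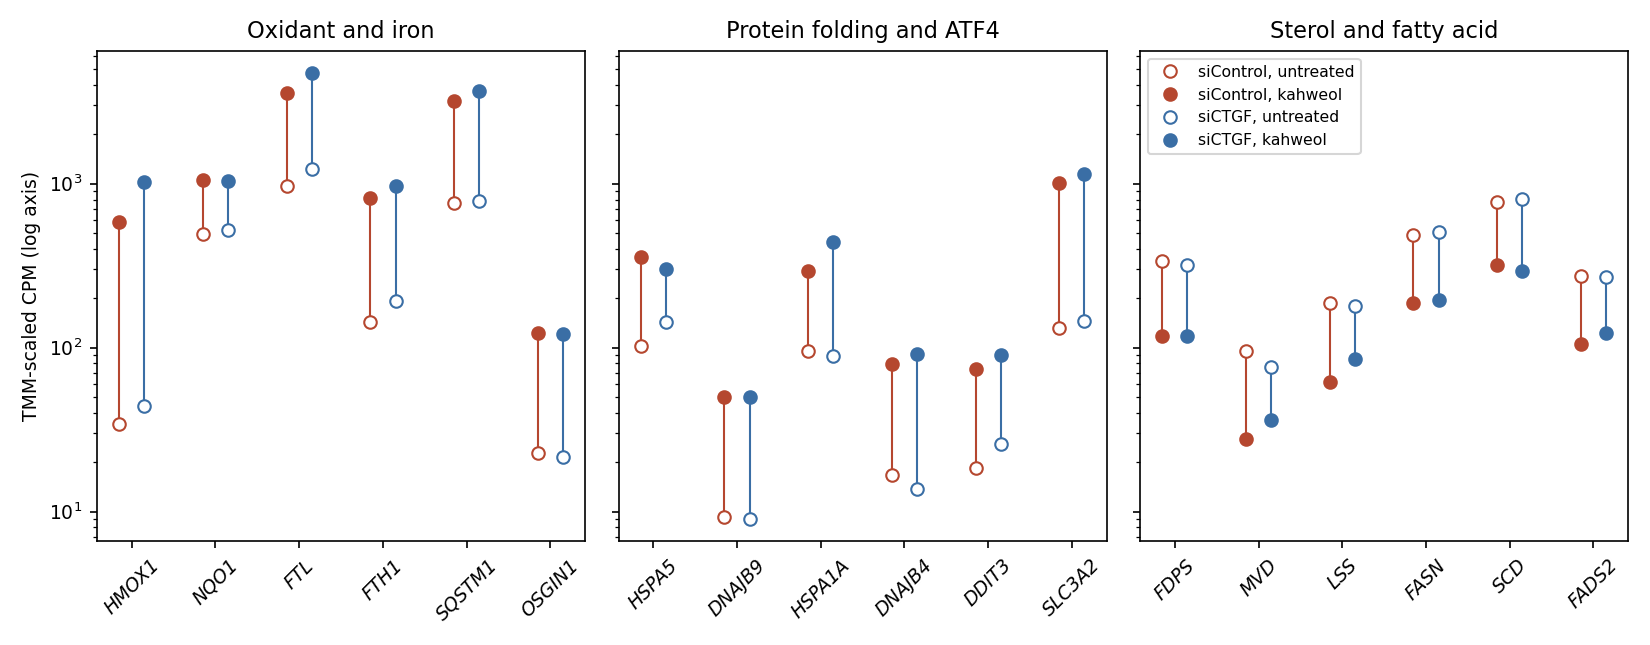
TMM-scaled CPM (y axis, log scale) of 18 genes in the 4 libraries. Open circles are untreated and filled circles kahweol-treated cells, red for siControl and blue for siCTGF, and lines join the 2 libraries of an siRNA. Oxidant, iron, chaperone and ATF4 genes lie higher with kahweol in both siRNA backgrounds, and FDPS, MVD, LSS, FASN, SCD and FADS2 lie lower.

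Lipid synthesis genes were lower with kahweol. Of 29 genes of cholesterol synthesis and SREBP2, 19 were under 0.7 and 2 over 1.3. Their median was -0.73 against -0.02 for all genes kept, and -0.85 in siCTGF cells. In the test, 1 rose and 22 fell, where 22.9% of all genes kept rose and 23.6% fell. Those that fell include enzymes of the middle and late steps of the pathway. FDPS, which makes farnesyl diphosphate, fell from 336 to 118 CPM in siControl and from 318 to 117 CPM in siCTGF cells, a log2 fold change of -1.51 (-1.57 to -1.45). MVD, of the mevalonate pathway, and LSS, which closes the lanosterol rings, fell from 94.8 to 27.7 CPM (-1.77) and from 188 to 61.9 CPM (-1.60), and in siCTGF cells they had -1.08 and -1.08. MYLIP, a ubiquitin ligase that is a target of liver X receptors, went the other way and rose from 13.0 to 43.5 CPM (1.74).

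Fatty acid synthesis followed the same direction, with 15 of 28 genes under 0.7, 3 over 1.3 and a median of -0.54. FASN, the fatty acid synthase, was at 489 and 506 CPM in the untreated and at 188 and 194 CPM in the treated libraries, a log2 fold change of -1.38 (-1.43 to -1.33; edgeR adjusted p = 2.9e-05). The desaturases SCD and FADS2 fell from 778 to 320.1 CPM and from 273 to 106 CPM. MLXIPL, the carbohydrate response factor ChREBP, fell at low abundance (3.12 to 0.857 CPM), whereas GPAM, the first enzyme of glycerolipid assembly, rose by 0.64 on the log2 scale. For fatty acid oxidation, 23 of 34 genes lay between the thresholds. PLIN2, which coats lipid droplets, rose from 76.9 to 202 CPM, PDK4, which blocks pyruvate dehydrogenase, and ANGPTL4, an inhibitor of lipoprotein lipase, rose at lower levels (1.51 and 1.12), and the short-chain dehydrogenase ACADS fell (-1.78).

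Glycolysis and hypoxia genes leaned downward, with exceptions. Of 28 glycolysis and glucose uptake genes, 11 were under 0.7 and 4 over 1.3 (median -0.28). The phosphofructokinase PFKL fell from 111 to 32.9 CPM, the lactate exporter SLC16A3 from 341 to 122 CPM, and PDK1, a brake on pyruvate dehydrogenase, from 69.9 to 24.6 CPM. The glucose transporter SLC2A3 (GLUT3) and the arrestin ARRDC4 rose, with log2 fold changes of 1.63 and 1.74, and TXNIP, a relative of ARRDC4, was at 135 and 179.6 CPM without passing the test (adjusted p = 0.12, edgeR). Of 33 hypoxia response genes, 15 were under 0.7 and 8 over 1.3, with a median of -0.45 (-0.43 in siCTGF cells). STC1, a secreted glycoprotein, fell from 133 to 39.5 CPM and the liprin PPFIA4 from 25.9 to 6.64 CPM, and CA9, the carbonic anhydrase that marks hypoxia, fell at low abundance (2.62 to 0.602 CPM). ADM, the vasodilator adrenomedullin, went the other way, from 69.7 to 179.5 CPM in siControl and from 70.4 to 203 CPM in siCTGF cells, and rose along with the demethylase KDM3A and the hypoxia factor EPAS1 (0.89 and 0.81).

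The core of the hypoxia response element, ACGTG on either strand, stood in 16 of 28 list members with a promoter entry (57.1%) and in 21.4% of all promoters. Of the 16 genes, 9 were under 0.7 and 1 was over 1.3. The stretches show 2 genes that moved down and the 1 that moved up.
PPFIA4, chr1:203026361-203026389, strand +: ggcgctctcgtCACGTGcccggacccgag
CA9, chr9:35673898-35673926, strand +: tcgtttccaatgCACGTacagcccgtaca
ANGPTL4, chr19:8363909-8363937, strand +: ggaaagaagagtCACGTctcccacggttc
In PPFIA4 the letters hold the core on both strands. The same core stood before genes that moved in opposite directions. Other motifs differed in how often they stood in their lists. The TEAD motif CATTCC was in 8 of 21 YAP/TAZ targets with an entry. The ATF4 and CHOP motif TGATGNAA was in 6 of 33 of their targets. The xenobiotic motif GCGTG was in 6 of 13 AHR and P450 genes. Each of these shares was higher than the share among all promoters. The AP-1 motif TGANTCA was in 1 of 22 immediate early genes with an entry (FOSL2, under 0.7), 4.55% against 7.71% of all promoters, and the sterol regulatory motif tcaccccac in 1 of 22 cholesterol genes (SREBF2, between the thresholds), against 0.430% of all.

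Respiratory chain mRNAs of the mitochondrial genome were lower with kahweol in siControl cells, while in siCTGF cells their log2 fold changes lay on both sides of 0, a difference between pairs that was not tested. None of the 13 mitochondrially encoded respiratory chain mRNAs was over 1.3 and 10 were under 0.7, with a median of -0.66, while the siCTGF pair had 2 over, 1 under and a median of 0.03. Of all genes kept, 28.4% were over 1.3 and 24.2% under 0.7 in the siCTGF pair. Over all 4 libraries 4 of the 13 fell, where 23.6% of all genes kept fell. Of the 4, ATP6, COX3 and ND3 lost the call with DESeq2. These genes adjoin or overlap each other (COX3 and ATP6, ND4 and ND4L), so reads may be shared. COX3, a subunit of cytochrome c oxidase, was at 681 and 355 CPM in siControl and at 517 and 451 CPM in siCTGF cells, log2 fold changes of -0.94 (-0.98 to -0.90) and -0.20. ND4, of complex I, was at 22.2, 11.1, 12.1 and 12.5 CPM in the same order, so the untreated siCTGF library lay near both treated ones. Together the mRNAs took 0.161% and 0.0808% of the counts in untreated and treated siControl cells, and 0.123% and 0.0976% in siCTGF cells, a lower share with kahweol in both. The rRNA of mitochondria had a higher share with kahweol in both, 3.94% and 4.33% in siControl and 3.11% and 6.01% in siCTGF cells, and its part in the result was not tested. Respiratory chain genes of the nucleus lay between the thresholds in 67 of 77 cases, with a median of -0.11, and the complex I subunits NDUFV3 and NDUFS8 fell by 0.82 and 0.79 on the log2 scale. Of 35 genes of one-carbon, serine and nucleotide synthesis, 14 were under 0.7 and 2 over 1.3 (median -0.39). MTR, the methionine synthase, fell from 132 to 66.4 CPM, a log2 fold change of -0.99. PPAT, the first enzyme of purine synthesis, rose by 0.57.

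Genes of ribosomes and splicing were higher as groups, by modest amounts. All 80 ribosomal protein genes kept had a positive log2 fold change in both pairs with TMM scaling, from 0.01 to 1.26 in siControl cells, and 2 of them turned negative there with total-count scaling. Of these 80, 37 were over 1.3 and none under 0.7 (median 0.37, and 0.28 in siCTGF cells). In the test, 70 of the 80 rose, against 22.9% of all genes kept. RPLP1, of the ribosomal stalk, went from 191 to 310.4 CPM and RPS16 from 41.8 to 100.1 CPM. Ribosomal protein genes have many processed pseudogenes that can take their reads. Of 44 ribosome biogenesis genes, 17 were over 1.3 and 3 under 0.7, with a median of 0.32 in siControl and 0.10 in siCTGF cells. In that list ODC1, the first enzyme of polyamine synthesis, rose from 219.8 to 619 CPM (1.49), and BOP1 and MYBBP1A, nucleolar proteins, fell (-1.19 and -0.77). MYC, which drives these genes, went from 237 to 324 CPM and rose (0.45). Of 49 splicing factors of the SR and hnRNP families, 25 were over 1.3 and none under 0.7 (median 0.38). The kinases of SR proteins CLK1 and CLK4 rose 2.13-fold and 2.15-fold, and RBM39, a splicing coactivator, rose from 293 to 631 CPM.

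Small noncoding RNAs were higher in the treated siControl library, though a minority passed the test over all 4 libraries. Of 175 snoRNAs kept, which guide modification of rRNA, 120 were over 1.3 and 9 under 0.7 (median 0.60, and 1.00 in siCTGF cells), in the C/D box (70 of 107) as in the H/ACA box class (50 of 68). The spliceosomal snRNAs had 16 of 20 over 1.3 (median 1.03). Small noncoding RNAs of nuclear genes took 2.43% of the counts in untreated and 3.60% in treated siControl cells, and 2.74% and 3.86% in siCTGF cells. Over all 4 libraries, 34 of the 175 snoRNAs rose (19.4%), against 22.9% of all genes kept. Their host genes and abundant long noncoding RNAs had 17 of 37 over 1.3 (median 0.35, and 0.63 in siCTGF cells). MIR22HG, the host of miR-22, rose from 34.0 to 127 CPM and ZFAS1, a host of C/D box snoRNAs, from 66.6 to 151 CPM, while OIP5-AS1 fell from 117 to 50.0 CPM. Hosts and the small RNAs within them lie on the same strand and can share reads.

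**Figure D4:**
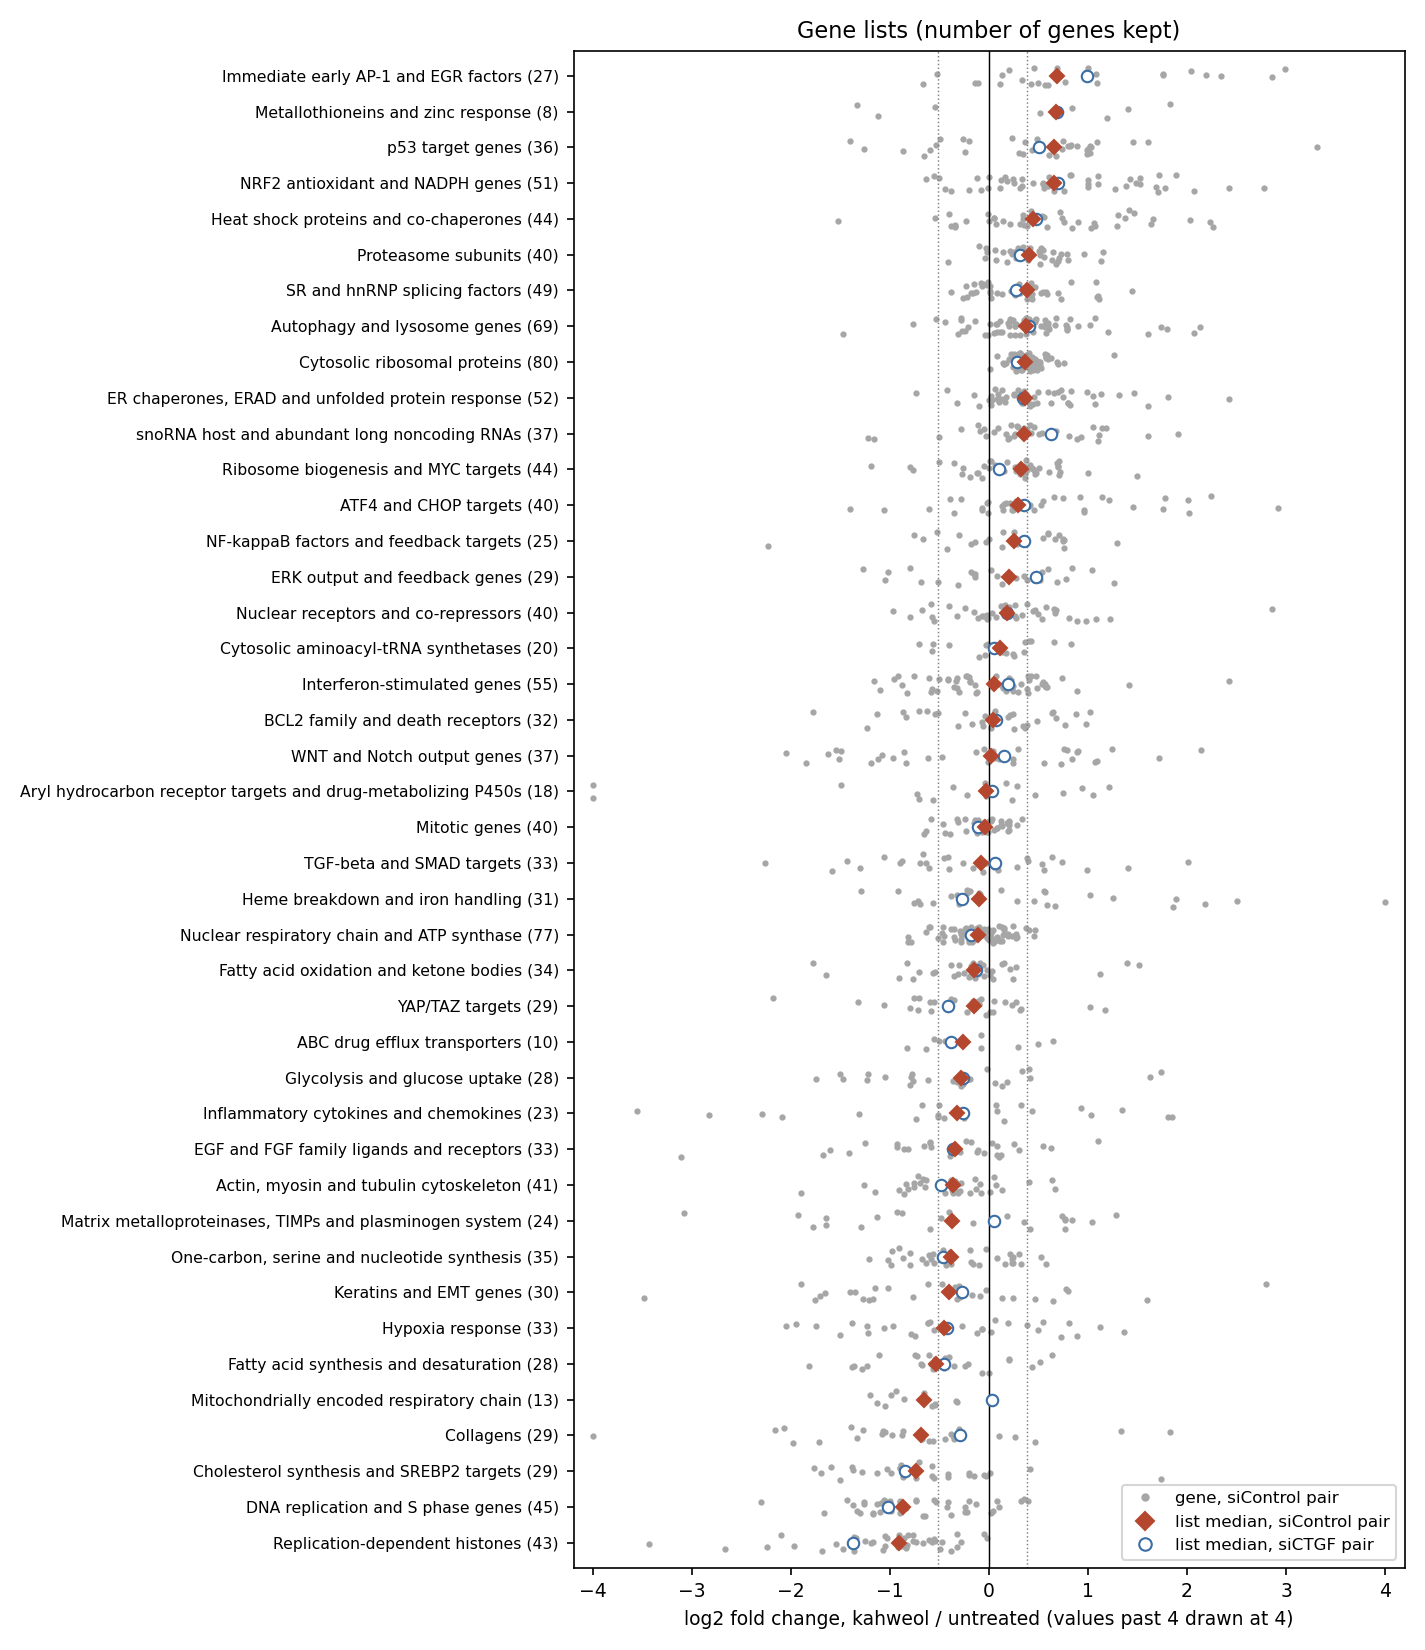
Log2 fold change with kahweol (x axis) for 42 gene lists (y axis, number of genes kept in brackets), ordered by median. Gray points are single genes in the siControl pair, red diamonds their median and open blue circles the median in the siCTGF pair, and dotted lines mark fold changes of 0.7 and 1.3. Medians of siControl run from -0.91 for replication-dependent histones to 0.69 for immediate early factors, and those of mitochondrially encoded and metalloproteinase genes lie away from their siCTGF medians, which are near 0.

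Immediate early transcription factors, which growth signals and stress switch on without new protein synthesis, had the highest median of the 42 gene lists. Of 27 kept, 19 were over 1.3 and 2 under 0.7 (median 0.69, and 0.98 in siCTGF cells). EGR1 went from 3.74 to 15.5 CPM in siControl and from 4.75 to 11.7 CPM in siCTGF cells. The siControl value was 2.04 (1.74 to 2.36) on the log2 scale. The orphan receptor NR4A3 rose from 0.240 to 1.99 CPM. FOSL2 and JUND, AP-1 subunits, were the members under 0.7. FOSL2 fell (-0.52), and JUND was at 33.8, 21.2, 27.9 and 30.6 CPM in untreated and treated siControl and siCTGF cells and did not pass the test. Output and feedback genes of ERK had 12 of 29 over 1.3 and 5 under 0.7. The dual-specificity phosphatase DUSP1 and the urokinase receptor PLAUR rose (0.78 and 0.83), and the cyclin CCND1 fell from 682 to 390.2 CPM, though not in the fit without an siRNA term, and PHLDA1 from 534 to 257 CPM. Among growth factors and receptors of the EGF and FGF families and their relatives, 13 of 33 were under 0.7 and 3 over 1.3 (median -0.34). The EGFR ligand AREG, the AXL ligand GAS6 and PDGFB fell (-1.42, -1.67 and -1.61), and VEGFA and PDGFA rose (0.55 and 0.62).

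Inflammatory genes were divided. NF-kappaB factors and feedback targets had 10 of 25 over 1.3 and 4 under 0.7 (median 0.25). ICAM1, a leukocyte adhesion receptor, rose from 38.4 to 94.3 CPM in siControl and from 29.5 to 71.5 CPM in siCTGF cells, whereas BIRC3, an inhibitor of apoptosis and NF-kappaB target, fell from 102 to 21.5 CPM and from 81.0 to 16.4 CPM. Of the 23 cytokines and chemokines kept, 6 were over 1.3 and 7 under 0.7. CXCL8 (interleukin-8) rose from 99.1 to 202 CPM, opposite to CXCL1, and the growth factor CSF3 fell from 96.8 to 38.8 CPM. PTGS2 (COX-2) and IL24 rose at low abundance (1.04 to 3.84 and 3.52 to 9.01 CPM). Interferon-stimulated genes had a median near 0 (0.05, below 0 with total-count scaling), with 17 of 55 over 1.3 and 11 under 0.7. IFIT2 and RSAD2, antiviral effectors, rose from 121 to 322 CPM and from 0.672 to 3.77 CPM, and OAS3 fell from 40.2 to 17.9 CPM.

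Among developmental signals, YAP/TAZ targets had 10 of 29 under 0.7 and 2 over 1.3 (median -0.16, and -0.42 in siCTGF cells). ANKRD1, a nuclear ankyrin repeat protein, fell from 453 to 181 CPM in siControl and from 303 to 66.9 CPM in siCTGF cells, TGFB2 fell (-1.07), and LATS2, the kinase that restrains YAP, rose (1.17). CTGF, also in this list, had a log2 fold change of 0.23 (0.17 to 0.29) in siControl and -1.0 in siCTGF cells and did not pass the test (edgeR adjusted p = 0.25). In the deposited TPM values CTGF was level in siControl cells, at 140.2 untreated and 140.4 treated. The higher siControl value therefore depends on the scaling, which the counting interval does not cover. TGF-beta and SMAD targets had 9 of 33 over 1.3 and 11 under 0.7. The BMP antagonist NOG and the BMP target ID1 fell (-2.27 and -1.59), and the decoy receptor BAMBI rose from 7.90 to 32.0 CPM. WNT and Notch output genes were evenly divided, 12 over 1.3 and 13 under 0.7 of 37. The WNT antagonists NOTUM and RNF43 fell (-1.62 and -1.55), while the receptor FZD8 and the Notch ligand DLL4 rose from low levels (2.74 to 9.10 and 0.928 to 4.21 CPM).

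Many p53 target genes were higher in this line with mutant p53. Of 36 kept, 22 were over 1.3 and 6 under 0.7 (median 0.66, and 0.50 in siCTGF cells). In the test, 23 rose and 6 fell, where 22.9% of all genes kept rose and 23.6% fell. CDKN1A, the CDK inhibitor p21, went from 192 to 339 CPM in siControl and from 134 to 324 CPM in siCTGF cells, log2 fold changes of 0.82 (0.77 to 0.87) and 1.28. SESN2, a sestrin that is also an ATF4 target, SERTAD1 and the phosphatase PPM1D rose (1.46, 1.60 and 1.09), and GADD45G rose from 0.176 to 2.11 CPM. DDB2, of nucleotide excision repair, and BAX, an apoptosis effector, fell (-1.41 and -0.87). The BCL2 family and death receptors had as many members over 1.3 (9) as under 0.7 (9). The BH3-only genes PMAIP1 (NOXA) and BCL2L11 (BIM) rose from 69.4 to 141 CPM and from 12.5 to 24.7 CPM, and BIK and BNIP3 fell (-1.78 and -1.23). Nuclear receptors and co-repressors had 15 of 40 over 1.3, among them the circadian repressors NR1D1 and CRY2 (1.22 and 1.08), which rose.

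Matrix and cytoskeleton genes were lower more often than higher. Of 29 collagens, 19 were under 0.7 and 3 over 1.3 (median -0.69, and -0.29 in siCTGF cells). Over all 4 libraries 1 collagen rose and 10 fell, where 22.9% of all genes kept rose and 23.6% fell. The transmembrane collagens COL13A1 and COL17A1 fell from 152 to 36.1 CPM and from 35.7 to 9.03 CPM, and COL4A4, of basement membranes, from 4.02 to 2.18 CPM, though not with DESeq2. COL11A1 was under the count filter, at no more than 0.240 CPM. Matrix metalloproteinases, their inhibitors and the plasminogen system had 8 over 1.3 and 10 under 0.7 of 24. The plasminogen activators PLAU and PLAT fell from 465 to 148 CPM and from 159 to 46.3 CPM, and the collagenase MMP1 and the inhibitor TIMP1 rose (1.28 and 0.77). Among keratin and EMT genes (14 of 30 under 0.7 and 6 over 1.3), KRT19 fell from 313 to 118 CPM, and the EMT repressors ZEB1 and ZEB2 rose (0.64 and 0.80). Of 41 actin, myosin and tubulin genes, 14 were under 0.7 and 3 over 1.3, and 27 fell and 2 rose. MYLK, the myosin light chain kinase, TPM1, a tropomyosin, and TUBB6, a beta-tubulin, fell (-1.91, -1.15 and -1.26), as did VCL (vinculin), from 383 to 252 CPM in siControl and from 348 to 206 CPM in siCTGF cells.

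The lowest medians of the 42 lists belonged to S phase genes. All 43 replication-dependent histone genes kept had a negative log2 fold change, 35 were under 0.7 and 41 fell (median -0.91, and -1.38 in siCTGF cells). H3C12 fell from 33.7 to 7.78 CPM and H2AC7, which lies within H3C4 on the same strand, from 12.4 to 1.92 CPM. Histone genes are near-identical copies, and most of their mRNAs lack a poly(A) tail, so their values rest on the rRNA-depleted design and on how reads were divided. DNA replication genes had 30 of 45 under 0.7 (median -0.87), 37 fell and 2 rose, and E2F1, the factor that starts S phase transcription, fell from 80.9 to 16.4 CPM in siControl and from 87.6 to 19.3 CPM in siCTGF cells. Mitotic genes, in contrast, lay between the thresholds in 37 of 40 cases, with a median of -0.04. Over all 4 libraries 12 of the 40 fell and 1 rose, where 23.6% of all genes kept fell and 22.9% rose.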

How the data were processed

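Total RNA of MDA-MB-231 cells was rRNA-depleted and made into stranded libraries (Illumina TruSeq) by the authors, 1 library per condition. According to the submitters' processing notes, FastQC 0.11.7, Trimmomatic 0.38, HISAT2 2.1.0, Bowtie2 2.3.4.1 and StringTie 2.1.3b were used with GRCh37.p13. The strand setting and the filters are not given in the sources used here. The RNA kit differs between the labels and the study's methods. The deposited gene table of the authors holds estimated counts per gene, made by the authors from the aligned reads and whole numbers here, beside FPKM and TPM values. The single-library tables deposited by the authors also hold coverage, which was used with coordinates and strand only to check lengths and overlaps.

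Counts were scaled with TMM factors (edgeR 4.0.16, R 4.3.3), and log2 CPM with a prior count of 2 were subtracted for genes averaging 10 counts or more. Counting intervals came from the exact binomial test in scipy 1.17.1. The fit over 4 libraries was edgeR's quasi-likelihood test with an siRNA covariate and Benjamini-Hochberg adjustment. On simulated counts it recovered 86% of log2 changes of 1, and 3.12% of its calls were false. The simulation changed few genes and gave both siRNAs the same kahweol effect, unlike these data, so its rates need not hold here. DESeq2 1.42.0 and limma 3.58.1 were alternatives, next to other scalings, filters, prior counts, a correction for length, and FPKM and TPM with a pseudocount of 1. Fold thresholds of 1.3 and 0.7 follow the study.

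The genes named are the 15 highest and 15 lowest protein-coding genes averaging 200 counts or more, up to 4 genes per list and direction past the thresholds that average 50 counts or more, genes the study's text names, and defining members of lists. FASN, ODC1, DDIT3, NDUFS8 and TGFB2 overlap small or noncoding RNAs on the same strand. Read-through genes were left out, and some genes are not reported here. Members and lists were chosen with earlier results of these data known. Nothing in the labels says that libraries came from separate cultures. The p-values rest on how far the kahweol effect differed between control and CTGF siRNA, and not on a spread between replicates. Promoters are from RefSeq.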

Additional observations from a re-analysis of the deposited data

Results flagged for a closer look

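The results below went opposite ways with kahweol in the 2 siRNA backgrounds, and none of these differences was tested, since each background has 1 library per condition. CTGF (CCN2), the gene knocked down, had a log2 fold change of 0.23 in siControl cells and of -1.0 in siCTGF cells. On TPM, CTGF was level in siControl cells, at 140.2 untreated and 140.4 treated, so its siControl direction depends on the scaling. PIGY, which overlaps PYURF on the same strand, had log2 fold changes of 2.82 and -2.13. The median of the mitochondrially encoded respiratory chain mRNAs was -0.66 in siControl and 0.0252 in siCTGF cells. For matrix metalloproteinases, their inhibitors and the plasminogen system the medians were -0.37 and 0.0443. Over all genes kept, 144 were over 1.3 in siControl and under 0.7 in siCTGF cells, and 238 were under 0.7 in siControl and over 1.3 in siCTGF cells. Of the genes at least 2-fold higher or lower in siControl cells, 60 and 127 lay past the opposite threshold in siCTGF cells.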

How the results depend on the processing

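No paired analysis was possible because the labels carry no replicate numbers and each condition has 1 library, apart from the fit with the siRNA as a covariate, which sets treated against untreated within each siRNA. Leaving out a library would take away a pair. Counting error is the only error behind the siControl values, and genes with few counts have wide intervals. Of the list medians, 399 values over all alternatives moved by less than the median half-width of their members' counting intervals, 84 moved by more with the same sign and 21 changed sign. For the named genes in the siControl pair 2858 values stayed within their counting interval, 629 moved out of it and none past a fold threshold changed sign. For their fit over 4 libraries, 2025 values kept their call, 27 lost and 6 gained it. Of the 27, 11 were lost with DESeq2, 8 with total-count scaling, 5 without the siRNA term and 3 without a filter. Examples are CCND1 without the siRNA term, and COL4A4, ULK2, ATP6, COX3 and ND3 with DESeq2.

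Counts of genes past a fold threshold depended on the filter and the unit. The 4665 genes over 1.3 became 2939 among genes averaging 200 counts or more, 2319 on log2(TPM + 1) and 2556 on log2(FPKM + 1), and the 4365 genes under 0.7 became 7046 unfiltered and 2464 among genes averaging 200 counts or more. The 1359 genes at least 2-fold higher became 2640 unfiltered, 846 with a mean of 50 counts or more, 600 with 200, 333 on TPM and 318 on FPKM. The 2202 at least 2-fold lower became 4103, 1410 and 938 under these filters and 797 on FPKM. Upward genes made up 51.7% of those past 1.3 or 0.7 with TMM, 41.0% with total-count scaling and 33.9% on TPM, and 38.2% of 2-fold changes with TMM against 18.1% on TPM. Upward calls of edgeR over 4 libraries were 49.2% with TMM and 35.8% with total-count scaling. DESeq2 called 3306 genes higher and 3254 lower, and limma-voom 3960 and 4062.

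Some list medians near 0 changed sign. With total-count scaling those of aminoacyl-tRNA synthetases, interferon-stimulated genes, WNT and Notch output and the BCL2 family were -0.0209, -0.0788, -0.11 and -0.0920. With upper-quartile scaling the last 3 were -0.00568, -0.0377 and -0.0187. On TPM the 4 were -0.128, -0.133, -0.126 and -0.0988, ERK output was -0.0232 and nuclear receptors -0.0317, and on FPKM the 4 were -0.0111, -0.0335, -0.0369 and -0.0381. WNT and Notch output was -0.0170 without a filter and -0.0178 with the length trend removed. The AHR and P450 list was 0.0741 and 0.238 for mean counts from 50 and from 200. The cause was not tested.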

Other observations

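A few abundant genes of translation and protein folding took a larger share of the counts in the treated libraries. The elongation factor EEF1A1 gained 4911 CPM and the constitutive HSP70 gene HSPA8 4625 CPM in siControl cells, and 4716 and 4388 CPM in siCTGF cells. The greatest losses were in the actin genes ACTG1 (from 2474 to 1382 CPM) and ACTB (from 1760.1 to 1042 CPM) and in TGM2, tissue transglutaminase (from 806 to 207 CPM). The 10 most abundant genes took 8.54% of the counts in untreated and 10.8% in treated siControl cells, and 8.25% and 12.9% in siCTGF cells.

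Genes of zinc finger proteins named ZNF were mostly higher with kahweol, a group chosen after the values were seen. Of 429 such protein-coding genes, 242 were over 1.3 and 45 under 0.7, with a median log2 fold change of 0.50 in siControl and 0.49 in siCTGF cells, against 28.1% and 26.3% past the thresholds over all genes kept. On chromosome 19, where many of them lie in clusters, 146 of 214 were over 1.3 and 15 under 0.7 (median 0.69), and on other chromosomes 96 of 215 and 30 (median 0.33). Over all 4 libraries, 223 of the 429 rose and 33 fell, where 22.9% of all genes kept rose and 23.6% fell. Long noncoding RNAs had a median of -0.40 (-0.22 in siCTGF cells) with 267 of 1234 over 1.3 and 558 under 0.7. Pseudogenes had a median of 0.25 (0.20 in siCTGF cells) with 493 of 1167 over 1.3 and 215 under 0.7. In the test, 78 long noncoding RNAs rose and 182 fell, and 135 pseudogenes rose and 68 fell. Each of these was a smaller share than among all genes kept. With protein-coding genes in 5 equal bins of the transcript length implied by counts and coverage, the median was -0.16 in the shortest bin and 0.04 in the longest.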
